A study of Mus musculus with 8 samples.

Results

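Protamines and transition proteins are the small basic proteins that pack the DNA of the sperm head. The 7 genes described here were chosen by name as spermatid nuclear proteins with large falls in MFN2 cKO cells at postnatal day (PD) 24, and they are Prm1, Prm2, Prm3, Tnp1, Tnp2, Hils1 and H1fnt, out of 54532 genes listed. All 7 had more than 1 FPKM (a measure of fragments that is scaled to gene length and library size) in at least 1 library, as did 21175 genes in all. Because the choice was made on the difference between MFN2 cKO and MFN2 WT at PD 24, that difference is given below as a description with no test.

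In round and elongating spermatids most histones are removed from the DNA. Transition proteins (Tnp1, Tnp2) take their place for a short time, and protamines (Prm1, Prm2) then replace the transition proteins and compact the nucleus. Hils1 and H1fnt encode variants of the linker histone H1 that are found in spermatids, and Prm3, although named as a protamine, encodes an acidic protein. The transcripts of protamines and transition proteins are made in round spermatids, after meiosis, and are stored for days before they are translated. In juvenile mice the first germ cells pass through meiosis together, so that spermatids are new to the testis around PD 24, whereas all stages are present in adults.

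The 8 libraries were of pachytene (P) and leptotene or zygotene (L/Z) spermatocytes from C57BL/6J mice, 1 library for each stage, genotype and age. MFN2 WT mice carried loxP sites on both copies of Mfn2 (Mfn2 loxp/loxp), the gene of mitofusin 2, which joins mitochondria. MFN2 cKO mice carried these sites and also Stra8-Cre, which is expressed in male germ cells only, so that other testis cells kept the gene. The mice were at PD 24 or PD 52. The study's methods also allow control mice with 1 floxed copy, and the number of mice behind each library was not given in the sources used here. Cells had been sedimented through a gradient of bovine serum albumin and judged by diameter and shape, without a marker. Mfn2 was lower in MFN2 cKO in all 4 pairs, at 39.6 against 77.1 FPKM in P and 34.3 against 82.2 in L/Z at PD 24. At PD 52 it was at 50.1 against 62.2 FPKM in P and 47.9 against 97.5 in L/Z, so part of the transcript remained in each MFN2 cKO library. The FPKM of Mfn2 covers the whole gene and not the floxed exon alone.

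The libraries held between 14340665 and 20379950 reads on genes. Reads of the 7 genes made up 0.00453% of them in P MFN2 cKO at PD 24 and 1.01% in L/Z MFN2 cKO at PD 52. The labelled stages were checked against marker genes. Of 15 pachytene markers, 3 were called higher and 2 lower in P by the test described below, with a median of 0.17 on the log2 scale. Of the 3, Piwil1 (16.0 to 40.5 FPKM in L/Z, 168 to 278 in P) and Pou5f2 (3.78 to 4.37 in L/Z, 44.2 to 63.3 in P) were far higher in all P libraries, and Mybl1 differed by 0.76, whereas Pgk2 (-0.88) and Spag6 (-1.26) were lower. Of 20 leptotene and zygotene markers, however, 7 were called higher in P, among them Sycp3, Spo11 and Hormad1, and 5 lower. Markers of elongating spermatids, cells that neither label names, were present in all 8 libraries and summed to between 995 and 9918 FPKM. In libraries of bulk RNA, fewer cells of a type and less RNA per cell cannot be told apart.

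Of the 7 genes, 4 are neighbors. Tnp2, Prm3, Prm2 and Prm1 lie in this order on the reverse strand within 17.9 kb of chromosome 16, from position 10787936 to 10805839 (GRCm38). Tnp1 is at 73015074 to 73015909 of chromosome 1, and H1fnt at 98255986 to 98257293 of chromosome 15, both on the reverse strand. Hils1, at 94967593 to 94968456 of chromosome 11, lies on the opposite strand inside the span of Sgca. The coding parts are short, from 51 codons in Prm1, 55 in Tnp1, 101 in Prm3, 107 in Prm2 and 117 in Tnp2 to 170 in Hils1 and 398 in H1fnt. Hils1, H1fnt and Prm3 each have 1 exon.

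Since the 7 genes moved together across the libraries, their promoters are shown for 5 of them, as the 120 bases before the RefSeq start (GRCm38.p6), 5′ to 3′, with motif matches in capitals. The capitals mark TGANNTCA, which is the cAMP response element (CRE, TGACGTCA) with any 2 central bases, in Prm1, Prm3 and Tnp1. In Prm2 they mark AACAAT, a Sox motif, and TTTATA, which is TATAAA on the other strand. Tnp2 is shown because it holds none of these.
Prm1 (chr16:10796824-10796943, reverse strand): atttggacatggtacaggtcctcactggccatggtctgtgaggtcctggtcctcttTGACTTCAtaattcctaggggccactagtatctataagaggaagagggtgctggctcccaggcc
Prm3 (chr16:10790915-10791034, reverse strand): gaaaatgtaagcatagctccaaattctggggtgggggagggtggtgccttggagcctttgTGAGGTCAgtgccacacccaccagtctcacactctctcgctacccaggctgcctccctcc
Tnp1 (chr1:73015900-73016019, reverse strand): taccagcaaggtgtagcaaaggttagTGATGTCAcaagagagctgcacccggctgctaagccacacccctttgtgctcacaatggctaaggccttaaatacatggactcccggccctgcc
Prm2 (chr16:10792106-10792225, reverse strand): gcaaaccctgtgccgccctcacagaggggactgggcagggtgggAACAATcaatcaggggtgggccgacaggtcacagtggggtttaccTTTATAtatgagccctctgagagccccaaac
Tnp2 (chr16:10788656-10788775, reverse strand): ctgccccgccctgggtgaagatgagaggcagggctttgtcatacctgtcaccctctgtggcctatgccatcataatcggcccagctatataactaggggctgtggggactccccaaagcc
All 7 genes matched the promoter table, H1fnt through its other symbol H1f7. Over 250 bases before to 50 after the start and on both strands, the exact CRE was found in 0 of the 7 and in 1.79% of 32851 promoters. The shorter CRE motif TGACG was in 1 (H1fnt, 20.8% of all promoters), TATAAA in 1 (Prm2, 13.6%) and AACAAT in 2 (Prm2 and Hils1, 10.7%). CTGATTGG, a Y box, was in 0 of them (4.10% of all). TGANNTCA, a form added after the sequences had been seen, was in 4 of the 7 (Prm1, Prm3, Tnp1 and Hils1) and in 14.1% of all promoters. It lay from -64 to -57 in Prm1 (TGACTTCA), from -60 to -53 in Prm3 (TGAGGTCA) and from -94 to -87 in Tnp1 (TGATGTCA). These are matches of letters only.

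Of the transition proteins, Tnp2 had more transcript than Tnp1 in all 8 libraries. Tnp2 was at 411 FPKM in P MFN2 WT, 15.3 in P MFN2 cKO, 778 in L/Z MFN2 WT and 17.9 in L/Z MFN2 cKO at PD 24. At PD 52 it was at 1145, 584, 2684 and 6254 FPKM in the same order. Tnp2 was thus the highest of the 7 genes in 5 libraries, and both PD 24 MFN2 cKO libraries stood far below the other 6. Tnp1 was at 103, 1.85, 211 and 14.3 FPKM at PD 24 and at 379, 137, 759 and 1711 at PD 52. In P MFN2 cKO at PD 24 the Tnp1 value rested on 15 reads, the fewest of any of the 7 genes in any library. Tnp1 lies within an antisense gene, 1700027A15Rik, which ranged from 0.154 FPKM in P MFN2 cKO at PD 24 to 124 in L/Z MFN2 cKO at PD 52. The strand setting of the counting was not stated, and whether Tnp1 and this gene share exons was not checked. It is thus not known whether their reads were told apart.

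**Figure D1:**
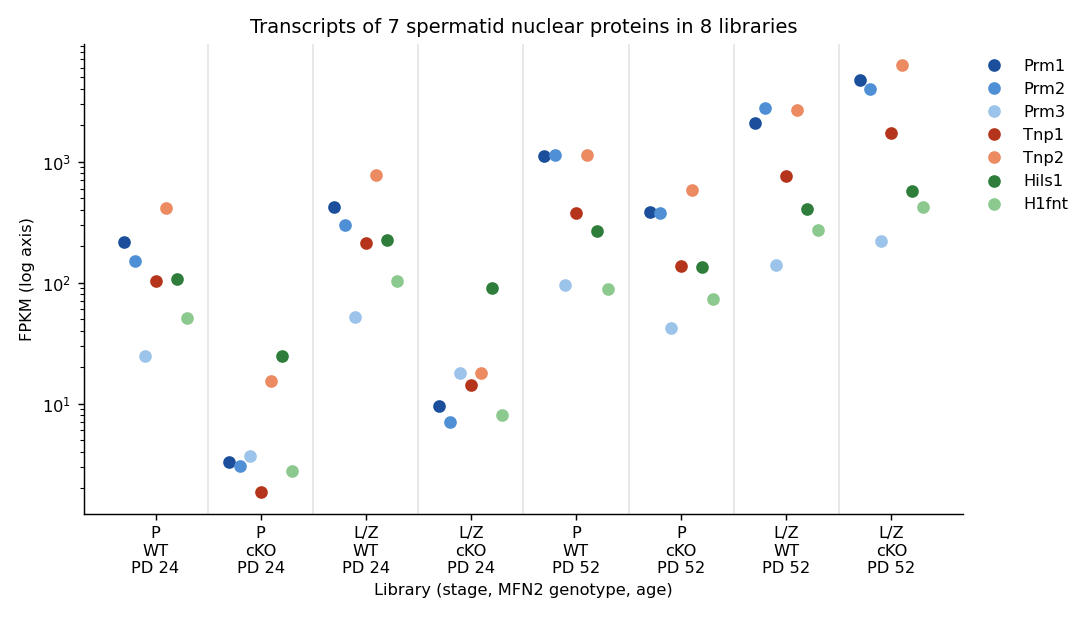
FPKM (log axis) of each of the 7 genes in each of the 8 libraries, 1 point per gene and library. The 2 MFN2 cKO libraries at PD 24 hold the 2 lowest points of every gene, from 1.85 to 24.8 FPKM in P, and L/Z MFN2 cKO at PD 52 holds the highest point of every gene.

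Of the protamine genes, Prm1 and Prm2 showed the widest ranges of all members, whereas Prm3 did not. Every member was lowest in P MFN2 cKO at PD 24, a library of the contrast that chose the genes. Prm1 was at 218 FPKM in P MFN2 WT, 3.30 in P MFN2 cKO, 424 in L/Z MFN2 WT and 9.48 in L/Z MFN2 cKO at PD 24, and at 1120, 384, 2081 and 4717 at PD 52. Its highest library was 1431-fold above its lowest. Prm2 was at 152, 3.07, 298 and 7.06 FPKM at PD 24 and at 1134, 375, 2801 and 4017 at PD 52, in the same order. Prm2 passed all other members only in L/Z MFN2 WT at PD 52. The gene span of Prm1 is overlapped by 2 low genes on the other strand, CT010583.1 and Gm10343, neither above 16.4 FPKM in any library. In P MFN2 cKO at PD 24, however, these were at 3.91 and 4.04 FPKM, above Prm1 itself, and in L/Z MFN2 cKO Gm10343 was at 9.48. As for Tnp1, shared exons were not checked. Whether reads of these genes enter the lowest values of Prm1, and so its range, is thus not known. Prm3 was the least abundant of the 3 in 6 libraries and the most abundant in both MFN2 cKO libraries at PD 24. It was at 24.9, 3.67, 51.8 and 17.9 FPKM at PD 24 and at 95.8, 42.3, 140 and 220 at PD 52. Prm3 spanned 59.9-fold from lowest to highest library.

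The linker histone variants differed from each other. Hils1 was at 108 FPKM in P MFN2 WT, 24.8 in P MFN2 cKO, 225 in L/Z MFN2 WT and 90.8 in L/Z MFN2 cKO at PD 24. At PD 52 it was at 267, 136, 409 and 577 FPKM. Its span of 23.2-fold was the narrowest of the 7 genes, and Hils1 was the most abundant member in both PD 24 MFN2 cKO libraries. Sgca, on the other strand at the same place, stayed between 5.58 and 15.8 FPKM. H1fnt was at 51.0, 2.75, 103 and 8.10 FPKM at PD 24 and at 88.3, 72.7, 271 and 420 at PD 52, a span of 153-fold.

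At PD 24, the contrast that chose them, all 7 genes were at least 2-fold below MFN2 WT in the MFN2 cKO libraries of P and of L/Z. A fold is counted here on log2(FPKM + 1), and 6.29% of 16749 genes in P and 7.03% of 17664 genes in L/Z were as much lower. Nothing is read from these counts, since the rule used them. The ratio of MFN2 WT to MFN2 cKO in P was highest for Prm1 at 66.2 (95% counting interval 47.5 to 95.3) and lowest for Hils1 at 4.34 (3.89 to 4.84). Tnp1 was at 55.8, Prm2 at 49.6 (37.6 to 66.8), Tnp2 at 26.8, H1fnt at 18.5 and Prm3 at 6.78. Of all genes passing the filter in P, 0 had a larger fall than Prm1, whereas 80 had a larger one than Prm3 and 151 a larger one than Hils1. In L/Z the ratio ran from 44.8 (36.6 to 55.4) in Prm1, 43.4 in Tnp2 and 42.2 in Prm2 through 14.8 in Tnp1 and 12.7 in H1fnt to 2.90 in Prm3 and 2.48 in Hils1. Tnp1 was thus among the genes with the largest ratios in P and in the middle in L/Z. Intervals are exact binomial, cover counting error only and say nothing of the spread between animals.

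At PD 52, in libraries that the choice did not use, the stages went opposite ways. In P all 7 genes were lower in MFN2 cKO, 4 of them at least 2-fold (Prm1, Prm2, Prm3 and Tnp1), beside 5.78% of 17444 genes. The ratio of MFN2 WT to MFN2 cKO was 3.03 for Prm2 (counting interval 2.93 to 3.13), 2.92 for Prm1, 2.76 for Tnp1 and 2.26 for Prm3. It was 1.97 for Hils1, 1.96 for Tnp2 and 1.22 (1.13 to 1.30) for H1fnt. In L/Z at PD 52 all 7 genes were higher in MFN2 cKO and 0 were at least 2-fold lower, a fall seen in 3.12% of 17860 genes. Tnp2 (2.33-fold, 2.29 to 2.37), Prm1 (2.27-fold) and Tnp1 (2.25-fold) were at least 2-fold higher, as were 4.83% of the genes. Prm3 was 1.57-fold, H1fnt 1.55-fold, Prm2 1.43-fold and Hils1 1.41-fold (1.36 to 1.46) higher. No counting interval of the 14 ratios at PD 52 included 1. Of 15591 genes measured in both pairs, 29.1% were lower in P and higher in L/Z, as all 7 members were. At least 2-fold lower in P and 2-fold higher in L/Z were 56 of them (0.359%), among which were Prm1 and Tnp1.

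**Figure D2:**
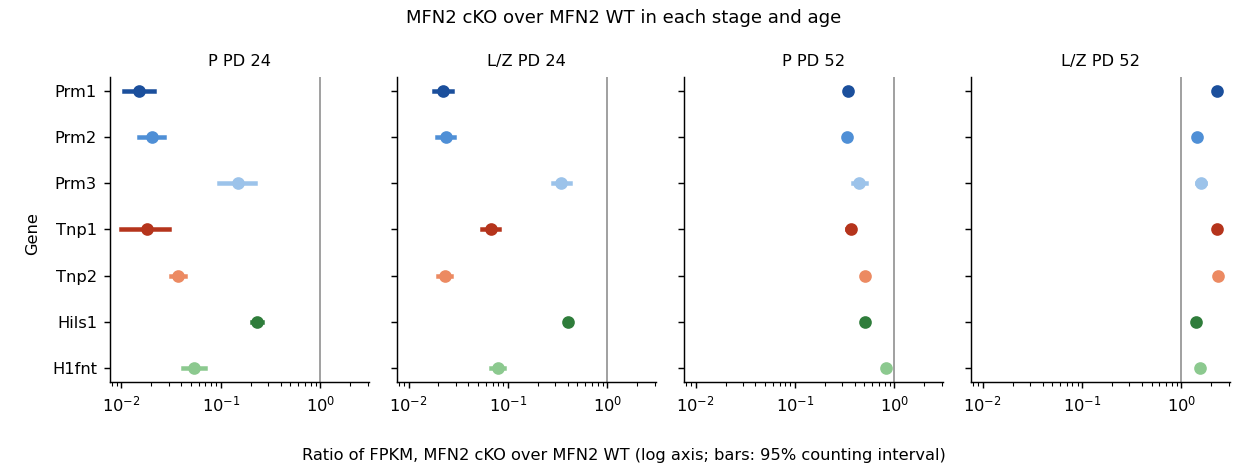
Ratio of FPKM in MFN2 cKO over MFN2 WT (log axis) for each gene in the 4 pairs of libraries, with bars for the 95% counting interval and a vertical line at 1. All 7 genes lie left of the line at PD 24 in both stages and in P at PD 52, and right of it in L/Z at PD 52, where they reach 2.33.

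With 1 library for each group, the genotype effect at PD 52 was tested with P and L/Z as replicates of each other, with limma on log2(FPKM + 1) over 21175 genes. It called 0 of the 7 genes, with Benjamini-Hochberg adjusted p between 0.766 and 0.968. Estimates ran from -0.54 (SE 0.48) for Prm2 to 0.18 (SE 0.28) for H1fnt on the log2 scale. Over all genes it called 3 lower, 0.0142%, and 2 higher, 0.00945%, and none of the 7 had an unadjusted p under 0.05, beside 1041 lower and 989 higher genes. With limma voom on the reads 0 of the 7 passed either. Each estimate averages a lower value in P with a higher one in L/Z. Without the P pair at PD 52 the 7 estimates were 0.49 to 1.22, and without the L/Z pair they were -1.60 to -0.28, which are the values of the pair that remained. The test has low power, since on simulated data it found large changes and missed moderate ones, and a missed threshold does not show that the genotypes were alike.

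Between the labelled stages, the transcripts were lower in P than in L/Z in all 4 pairs, for all 7 genes. Of all genes passing the filter at PD 24, 8176 of 17720 in MFN2 WT and 9740 of 17441 in MFN2 cKO were lower. The counts at PD 52 were 9441 of 17866 and 9727 of 18398. In MFN2 WT at PD 24 the ratio of L/Z to P was nearly the same for every gene, from 1.89 in Tnp2 to 2.09 in Hils1. In MFN2 cKO at PD 24 it ran from 1.17 in Tnp2, whose P over L/Z interval of 0.686 to 1.07 included 1, to 7.76 in Tnp1. In MFN2 WT at PD 52 it was between 1.46 (Prm3) and 3.07 (H1fnt). In MFN2 cKO at PD 52 it was between 4.25 (Hils1) and 12.5 (Tnp1), and Prm1 was at 4717 FPKM in L/Z and 384 in P. The pair from MFN2 WT mice at PD 24 was thus the one in which the genes kept closest to a common ratio.

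**Figure D3:**
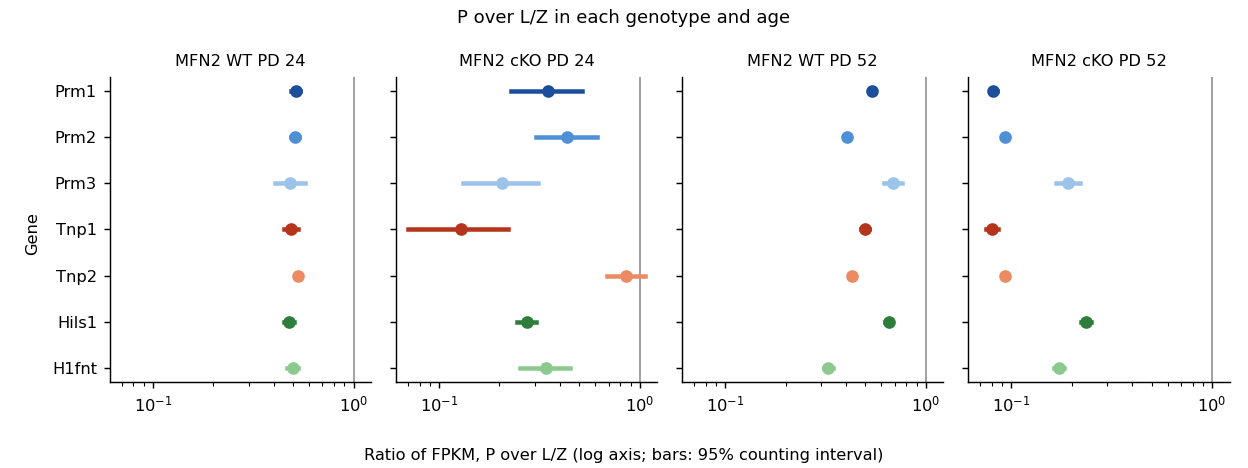
Ratio of FPKM in P over L/Z (log axis) for each gene, in 4 panels for genotype and age, with bars for the 95% counting interval and a vertical line at 1. The 7 genes line up between 0.478 and 0.529 in MFN2 WT at PD 24 and spread between 0.0803 and 0.235 in MFN2 cKO at PD 52.

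This difference was tested with limma over the 4 pairs, which uses the mean of both genotypes. The PD 24 values of both genotypes, whose difference chose the genes, enter this fit. Fits without each pair in turn are given below, and none of them leaves out both genotypes at PD 24. P was lower than L/Z for 6 of the 7 genes, beside 16.0% of all 21175 genes, with a median of -1.60 on the log2 scale against -0.04 over all genes. Tnp1 fell by 2.02 (SE 0.43, adjusted p = 0.0143), H1fnt by 1.60 (SE 0.25, adjusted p = 0.00585) and Hils1 fell by 1.395 (SE 0.26, adjusted p = 0.00942). Prm1 (-1.69), Prm2 (-1.67) and Prm3 (-1.48) also passed, and Tnp2, at -1.44 (SE 0.47), missed the threshold with an adjusted p of 0.0558. With no filter on low values, 1 gene, H1fnt, remained past the threshold. The calls also depended on which pair was left out. Without MFN2 WT at PD 24 or without MFN2 cKO at PD 52 limma called 0 of the 7 genes and 0 of all genes (smallest adjusted p among the 7, 0.0559 and 0.0557). It called H1fnt alone without MFN2 cKO at PD 24, and 4 genes (Prm3, Tnp1, Hils1 and H1fnt) without MFN2 WT at PD 52. All 7 estimates stayed below 0 in each of these fits, with the highest at -0.79.

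Markers of several cell types differed between stages, and those of spermatids had the direction of the members. Over all 21175 genes, 2634 were called higher and 3379 lower in P. Of 22 elongating spermatid markers, 19 were called lower in P and 0 higher (median -1.48), for example Smcp, a capsule protein of sperm mitochondria, at -1.67 and Odf1, a protein of the tail's outer dense fibers, at -1.64. Of 20 round spermatid markers that passed the filter, 16 were lower and 1, Tex101, was higher. Actl7b, another of this list, was at 0 in all libraries. Of 14 Sertoli cell markers 13 were higher in P (median 1.75), led in abundance by Clu, which ran from 11.9 to 122 FPKM in L/Z and from 186 to 385 in P. Markers of peritubular myoid cells (7 of 7 lower in P, median -1.43, for example Acta2 at -2.42) and of macrophages (9 of 12 lower, median -1.07) were also lower in P. The part of cell makeup in the difference of the 7 genes was not tested.

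With age, all 7 genes were higher at PD 52 than at PD 24 in each of the 4 pairs. Of all genes passing the filter in MFN2 WT, 8382 of 17162 in P and 10280 of 18033 in L/Z were higher. For MFN2 cKO these were 8827 of 17681 in P and 9327 of 18480 in L/Z. In MFN2 WT the ratio of PD 52 to PD 24 ran from 1.73 in H1fnt to 7.46 in Prm2 in P, and from 1.82 in Hils1 to 9.41 in Prm2 in L/Z. In MFN2 cKO it ran from 5.46 (Hils1) to 122 (Prm2) in P and from 6.35 (Hils1) to 569 (Prm2) in L/Z. The PD 24 values of both genotypes had entered the choice of the genes. Prm2 thus had the highest ratio in all 4 pairs, at 3.07 FPKM at PD 24 and 375 at PD 52 in P MFN2 cKO.

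The 2 MFN2 WT pairs hold no MFN2 cKO values, but their PD 24 values also entered the difference that chose the genes. Fitted alone with limma, they gave differences from 1.08 in Hils1 and 1.09 in H1fnt to 2.32 in Prm1 and 3.06 in Prm2 on the log2 scale (SE 0.24, 0.25, 0.25 and 0.27), with a median of 1.66 against 0.01 over all genes. None of the 7 passed (adjusted p = 0.294 for each), nor did any other of 21175 genes, with 1 residual degree of freedom. All 7 had an unadjusted p under 0.05, beside 10.5% of all genes higher at PD 52. That p-value measures the spread between the P and L/Z pairs and not the spread between animals. This fit was added after the data had been seen. Over all 4 pairs limma called 5 of the 7 genes higher at PD 52, beside 11.9% of all genes, but nothing is read from that count, since the low PD 24 values of MFN2 cKO enter it. The estimates over 4 pairs, from 1.80 in Hils1 to 5.40 in Prm2 with a median of 4.03, average the MFN2 WT pairs (medians 1.87 in P and 1.78 in L/Z) with the MFN2 cKO pairs (5.16 and 6.80). Over the same 4 pairs 20 of 22 elongating and 17 of 20 round spermatid markers rose and 0 fell, and 8 of 14 Sertoli cell markers fell.

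Within a library, the balance between the members changed most in MFN2 cKO at PD 24. Hils1 was at 0.493 and 0.530 of the Prm1 level in P and L/Z of MFN2 WT at PD 24, and at 7.53 and 9.58 times that level in MFN2 cKO. At PD 52 the ratio of Hils1 to Prm1 was 0.238 and 0.353 in P and 0.197 and 0.122 in L/Z, MFN2 WT first. Part of this follows from the choice of the genes by their fall at PD 24. The ratio of Tnp2 to Tnp1 was between 3.02 and 4.25 in 6 libraries, but 8.31 in P MFN2 cKO and 1.25 in L/Z MFN2 cKO at PD 24. Prm1 and Prm2, which are packed together in mouse sperm, kept a ratio between 0.743 and 1.43 in all 8 libraries. Protamines (Prm1 and Prm2 summed) were below transition proteins (Tnp1 and Tnp2 summed) at PD 24, at ratios of 0.720 and 0.730 in MFN2 WT and 0.370 and 0.513 in MFN2 cKO, P first. At PD 52 they were above them, at 1.48 and 1.42 in MFN2 WT and 1.05 and 1.10 in MFN2 cKO. The ratio of protamines, which act later, to transition proteins was thus lower in MFN2 cKO in all 4 pairs, of which the 2 at PD 24 belong to the contrast that chose the genes.

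**Figure D4:**
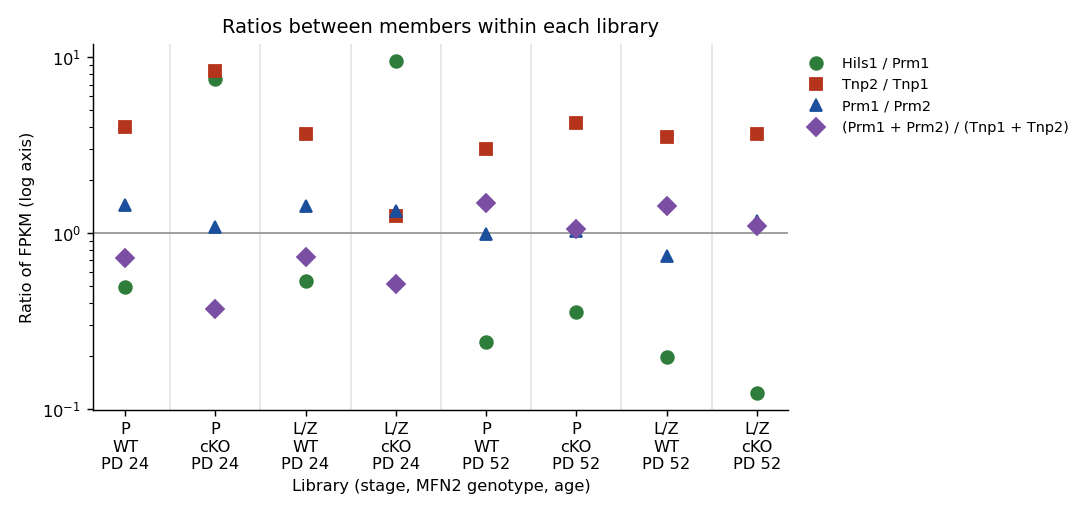
Ratios of FPKM between members within each of the 8 libraries (log axis), 1 point per ratio and library, with a line at 1. The ratio of Hils1 to Prm1 is above 1 in the 2 MFN2 cKO libraries at PD 24 only, at 7.53 and 9.58, and that of protamines to transition proteins is above 1 in the 4 libraries at PD 52 only.

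Over the 8 libraries, log2(FPKM + 1) of the members was correlated with r from 0.917 to 0.997 (median of 21 pairs 0.981), as a description, since the libraries share the changes by age, stage and genotype described above. Of 5060 protein-coding genes with a mean above 10 FPKM, those with the most similar pattern were Tmem270 (r = 0.997), H2al2a, Iqcf1, Cabs1 and 1700034E13Rik. H2al2a, a histone variant of spermatids that takes part in the exchange of histones, was at 24.4 and 0.992 FPKM in P and 50.9 and 2.60 in L/Z at PD 24, MFN2 WT first. At PD 52 it was at 64.4 and 30.1 in P and 133 and 225 in L/Z. Cabs1, a protein of elongating spermatids, was at 16.9, 0.786, 41.0 and 2.43 FPKM at PD 24 and at 53.1, 32.7, 143 and 253 at PD 52. Both are also in marker lists used here. Each had the order of the members, lowest in P MFN2 cKO at PD 24 and highest in L/Z MFN2 cKO at PD 52.

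Other genes of the same process are given next, beside members that had been chosen for their falls at PD 24, so that the sizes are not compared. Of 16 genes for histone removal and chromatin remodeling, 15 passed the filter in P at PD 24, with a median change of -0.25 between MFN2 cKO and MFN2 WT, and 2 were at least 2-fold lower. These were Chd5, a remodeler needed for histone removal, at -1.56, and Cdyl, at -1.44, and the same 2 genes were lower in L/Z (-1.63 and -1.79). Hspa2, a chaperone of spermatocytes and spermatids, was at 578 FPKM in MFN2 cKO against 770 in MFN2 WT in P (the same order is kept below) and 473 against 461 in L/Z, and Phf7, a reader of histone marks, at 333 against 427 and 302 against 326. Psme4, an activator of the proteasome that degrades histones, was at 65.5 against 77.9 in P and 74.0 against 91.0 in L/Z. At PD 52 none of the 16 was changed 2-fold in either pair. Over 4 pairs, Nutm1, Chd5, Cdyl and Camk4 were called lower and Setd2 higher in P than in L/Z, and with age Camk4 and Nutm1 rose and Top2b fell.

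Factors that transcribe spermatid genes had a median change at PD 24 of -0.32 in P and -0.06 in L/Z over 10 genes, beside -0.10 and 0.08 over all genes. Fhl5, the coactivator of CREM in testis, was at least 2-fold lower in both, at 3.26 against 25.8 FPKM in P and 15.4 against 58.6 in L/Z. Creb3l4, a testis factor of the CREB family, was at 18.3 against 48.6 FPKM in P, and Sox30 changed by -1.03 in L/Z. CREM, the activator that acts at CREs of spermatid genes, was encoded by transcripts within 2-fold (Crem, 18.4 against 22.3 FPKM in P and 27.0 against 27.3 in L/Z). Gtf2a1l (115 against 148 in P) and Tbpl1 (92.6 against 95.1), which belong to the general transcription machinery of spermatids, were within 2-fold. At PD 52 none of the 10 was changed 2-fold. With age Fhl5 rose by 2.10, Creb3l4 by 1.61, Crem by 0.75 and Gtf2a1l by 0.53 on the log2 scale, the 4 of 10 that passed the test.

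The list for storage and translation of spermatid mRNA had 12 genes, and 0 of them were 2-fold lower in MFN2 cKO at PD 24 (median -0.26 in P and -0.03 in L/Z). Ybx2, which binds and stores protamine mRNA, was at 984 against 1380 FPKM in P and 612 against 717 in L/Z. Ybx3 was at 651 against 831 in P and 486 against 474 in L/Z, and Pabpc2 at 257 against 319 and 325 against 338. At PD 52 the only change of 2-fold was in Piwil1 in L/Z, at 16.0 against 40.5 FPKM. Of 13 testis and linker histones that passed the filter in P at PD 24, H2al2a (-3.67) and H2afb1 (-1.39), both histone variants of spermatids, were at least 2-fold lower. H3f3b (253 against 271 FPKM) and H2afz (125 against 135), which most cells use, were within 2-fold. In L/Z H2al2a was lower (-3.85) and the linker histone Hist1h1c higher (1.65). At PD 52 H2al2a (-1.07) and Hist1h1a (-1.12) were lower in P, and H2afb1 (1.02) and Hist1h1c (1.83) were higher in L/Z.

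**Figure D5:**
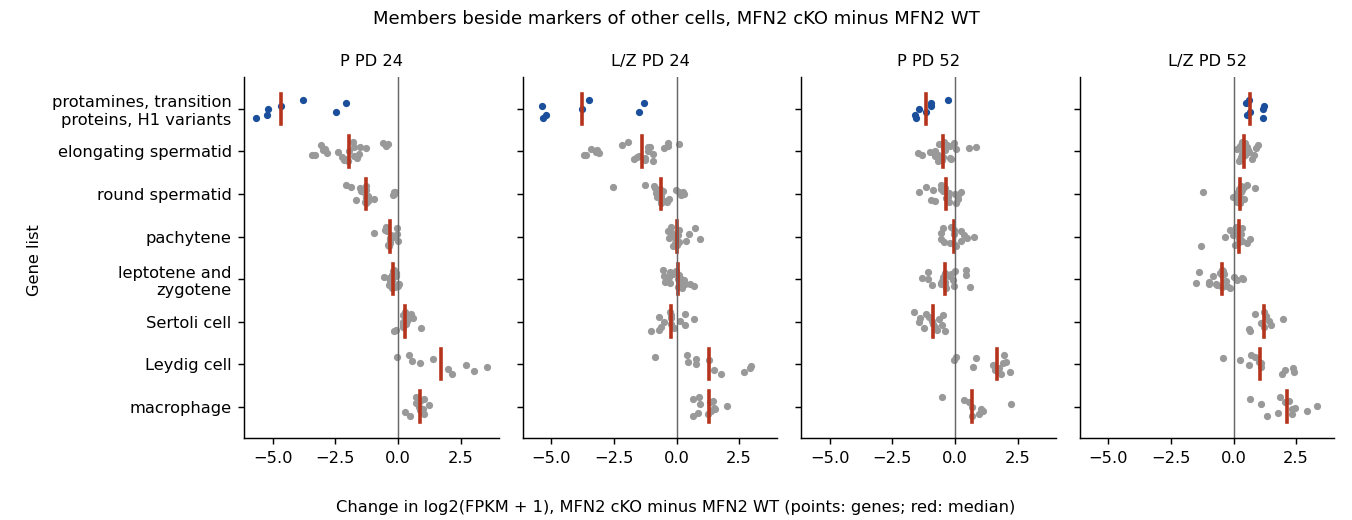
Change in log2(FPKM + 1), MFN2 cKO minus MFN2 WT, for each gene (points) of 8 lists in the 4 pairs of libraries, with the median of each list as a red line and genes above 1 FPKM in at least 1 of the 2 libraries shown. At PD 24, the contrast that chose the members, their median is -4.66 in P and -3.79 in L/Z. Elongating spermatid markers reach -3.42 in P and -3.69 in L/Z, further left than Prm3 and Hils1. The macrophage list lies furthest right in L/Z at PD 52, with a median of 2.14.

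Markers of other cells moved with these differences. In P at PD 24, 19 of 22 elongating spermatid markers were at least 2-fold lower in MFN2 cKO (median -1.97) and 15 of 20 round spermatid markers (median -1.29), whereas 0 of 15 pachytene markers were (median -0.32). Smcp was at 36.6 against 168 FPKM, Odf1 at 29.3 against 120 and Tssk2, a kinase of spermatids, at 12.1 against 54.8, while Meig1, at 560 against 740, and Zpbp2, at 171 against 193, were within 2-fold. In L/Z at PD 24 16 of 22 elongating markers (median -1.37) and 2 of 20 round ones, Dnajb8 (-2.53) and Tssk2 (-1.25, with a list median of -0.62), were as much lower. Elongating markers summed to 1970 and 2816 FPKM in MFN2 WT and to 995 and 1580 in MFN2 cKO, P first. The 7 genes summed to 1068 and 2091 FPKM in MFN2 WT and to 54.8 and 166 in MFN2 cKO. Ldhc, the most abundant pachytene marker, was at 1647 against 2056 FPKM in P and 1622 against 1494 in L/Z.

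At PD 52 the spermatid lists followed the members in sign with smaller medians. In P elongating markers had a median of -0.47, with 2 of 22 at least 2-fold lower (Spem1 and Tssk6), and round markers one of -0.37. In L/Z 22 of 22 elongating markers were higher in MFN2 cKO, none 2-fold, with a median of 0.42, and 18 of 20 round ones, with a median of 0.24. Elongating markers summed to 9918 FPKM in L/Z MFN2 cKO and 7534 in L/Z MFN2 WT, and the 7 genes to 17916 and 9145. In P the sums were 2904 and 4165 FPKM for the markers and 1731 and 4229 for the 7 genes. How far the number of spermatids in each preparation sets the level of the 7 genes was not tested.

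Somatic cells also differed. Of 12 macrophage markers, 11 were at least 2-fold higher in MFN2 cKO in L/Z at PD 52, the library pair in which the 7 genes were higher, and the list summed to 201 against 26.9 FPKM. Lyz2 was at 62.5 against 5.28 and C1qa at 35.3 against 3.79. The same list summed to 155 against 50.2 in L/Z and 59.9 against 27.1 in P at PD 24, and to 27.3 against 11.5 in P at PD 52, where Tyrobp was at 0 in MFN2 WT. The median of Leydig cell markers was higher in MFN2 cKO in all 4 pairs (1.70, 1.29, 1.67 and 1.05), for example Cyp17a1, a steroid enzyme, at 22.4 against 1.88 FPKM in P at PD 24. Their sums ran from 40.3 to 292 FPKM in MFN2 WT and from 118 to 708 in MFN2 cKO, and Sult1e1 was at 0 in both MFN2 WT libraries at PD 24. Sertoli cell markers were lower in MFN2 cKO in P (median -0.88) and higher in L/Z (median 1.22) at PD 52. Their sums were 415 against 895 and 127 against 44.2 FPKM. Peritubular myoid markers had medians of 0.10 in P and 0.56 in L/Z at PD 24. Spermatogonia markers were within 2-fold in both stages at PD 24 (medians 0.42 and 0.31), and at PD 52 their medians were -0.27 in P and -0.76 in L/Z. Leptotene and zygotene markers, led in abundance by Syce1, had medians of -0.21 and 0.04 at PD 24 and of -0.40 and -0.46 at PD 52. The part of these cells in the values of the 7 genes was not tested.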

How the data were processed

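RNA of 8 spermatocyte libraries was sequenced by the authors as paired-end reads on an Illumina instrument. The authors deposited FPKM values, made with Novomagic, for 54532 genes. The submitters' notes name Bowtie 0.12.2 and CASAVA 1.4 and the builds mm8 and mm9, but the gene positions in the table are those of GRCm38, and for all 7 members they are identical in GENCODE mouse release M21. The FPKM values were used through log2(FPKM + 1). FPKM times gene length gave whole reads for 100% of values (tolerance 0.01 reads), and these reads were used for counting intervals (exact Clopper-Pearson, 95%) and as an alternative. Depth was 14340665 to 20379950 reads on genes. Intervals cover counting error only.

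The members and all gene lists were chosen with earlier results of these data known. The members were chosen on the difference of MFN2 cKO from MFN2 WT at PD 24. Named genes were drawn from the 7 members, Mfn2, the 3 genes of highest mean FPKM in each list, list genes behind a count of 5 or fewer, and the 5 genes of most similar pattern. Mybl1, Pgk2, Spag6, Acta2, Crem, Hormad1, Sycp3, Spo11 and Pou5f2, and the examples of reduced lists, were named after their values were seen.

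P was compared with L/Z, and PD 52 with PD 24, over 4 pairs of libraries with the pair as a block. The PD 24 values of both genotypes, whose difference chose the members, enter both fits. The stage fit was also made without the MFN2 cKO pair at PD 24, and the age fit on the 2 MFN2 WT pairs alone. Both of these still hold MFN2 WT values at PD 24. The genotype effect at PD 52 was fitted with a mean for each stage and age, and P and L/Z stood in as replicates. All used limma 3.58.1 in R 4.3.3 with a trended variance, over the 21175 genes that passed 1 FPKM in any library, at a Benjamini-Hochberg adjusted p of 0.05. The authors name DESeq2 as their test, which was not used on FPKM. Each group has 1 library, and p-values measure only the spread between pairs. The tests were checked on simulated data. The stage and age tests found nearly all changed genes at the smaller simulated size, whereas the genotype test at PD 52 found none of them at that size and nearly all only after the size had been raised, so that its power is low. Alternatives were a pseudocount of 0.1, no filter on low values, a further median-of-ratios scaling (over genes with FPKM above 1 in all 8 libraries, since the authors had already scaled over all genes), protein-coding genes only, limma voom on recovered reads, fits without the block and fits without each pair in turn. The age fit on MFN2 WT pairs was added after the data had been seen. Promoters came from RefSeq (GRCm38.p6). Protein sequences were not used here. Python 3.11.15, pandas 2.3.3, NumPy 2.4.6, SciPy 1.17.1 and matplotlib 3.10.9 were used.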

Additional observations from a re-analysis of the deposited data

Results flagged for a closer look

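At PD 52 the change from MFN2 WT to MFN2 cKO went down in P and up in L/Z for all 7 genes, in the 1 pair of libraries of each stage. On the log2 scale the change in L/Z exceeded that in P by 2.72 in Prm1, 2.63 in Tnp1, 2.19 in Tnp2, 2.12 in Prm2, 1.81 in Prm3, 1.47 in Hils1 and 0.91 in H1fnt. This difference between stages was not tested, since each group has 1 library. In L/Z the change was below 0 at PD 24 and above 0 at PD 52 for all 7 genes, and the 2 changes differed by 6.58 in Tnp2, 6.52 in Prm1, 5.73 in Prm2, 4.96 in Tnp1, 4.14 in H1fnt, 2.13 in Prm3 and 1.79 in Hils1. This difference was not tested either, and the PD 24 part of it had chosen the genes.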

How the results depend on the processing

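For the 4 pairs of genotypes, the number of members at least 2-fold lower or higher was the same under a pseudocount of 0.1, no filter and a further median-of-ratios scaling. No paired analysis by replicate number was possible because the labels give no replicate numbers and each group has 1 library. Calls by limma were less stable. With no filter the P against L/Z test called 1331 genes higher and 1679 lower, and PD 52 against PD 24 called 632 higher and 159 lower. Without the block for the pair these were 868 and 277, and 1 and 0, and 0 members passed in either. With each pair left out, genes higher and lower numbered 0 to 2360 and 0 to 2640 in the stage test, and 0 to 2629 and 0 to 1308 in the age test. On the MFN2 WT pairs alone, added after the data had been seen, the age test called 0 and 0 (unadjusted p under 0.05 in 2226 higher and 902 lower). The genotype test at PD 52 called 2 genes higher and 3 lower. It called 1 and 1 with a pseudocount of 0.1, 0 and 0 with no filter, 2 and 1 with median-of-ratios scaling, 90 and 22 among protein-coding genes, 215 and 60 with voom, and 0 to 0 with each pair left out, and 0 members under any of these. Its estimates changed sign when 1 pair at PD 52 was left out, since the remaining pair sets the estimate. Without P and without L/Z they were 1.18 and -1.54 in Prm1, 0.52 and -1.60 in Prm2, 0.65 and -1.16 in Prm3, 1.17 and -1.46 in Tnp1, 1.22 and -0.97 in Tnp2, 0.49 and -0.97 in Hils1, and 0.63 and -0.28 in H1fnt. Tnp2 passed in the stage test under median-of-ratios scaling, among protein-coding genes and with voom, and Tnp2 and H1fnt passed in the age test under the last 2. With no filter, and with P MFN2 cKO, L/Z MFN2 WT or L/Z MFN2 cKO left out, 0 members passed in the age test, and without P MFN2 WT 6 did. The cause of the other differences was not tested. In P MFN2 cKO at PD 24, 15 to 399 reads a gene limit the precision.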
